A study of Mus musculus with 12 samples.

Results

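The genes described here encode the enzymes that add methyl groups to histone lysines and those that remove them. They were found by name, as every gene symbol of the RNA tables that begins with Kdm, Kmt, Setd, Suv39h, Suv420h, Ehmt, Ash1l, Nsd, Whsc1, Mll, Dot1l or Smyd, with a mean of at least 0.5 CPM (reads of a gene scaled to the library's total) over the RNA libraries. The name pattern matched 55 of 44345 genes and all 55 reached the minimum, the lowest mean being 2.00 CPM for Kdm4d. The pattern also takes 7 genes that share only its letters, Mllt1, Mllt3, Mllt4, Mllt6, Mllt10, Mllt11 and Nsdhl, which encode no methyltransferase or demethylase and are kept apart below. The other 48 are called enzyme genes here: 20 methyltransferases with an established histone site (writers), 17 demethylases (erasers) and 11 proteins with the same SET fold whose main substrate is no histone or is not settled. All 48 passed the filter on low counts and were tested.

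The tissue was the L4-L6 dorsal root ganglion. The mice, C57BL/6 and 6 to 8 weeks old, had undergone dorsal column axotomy 24 h earlier, which cuts the central axons of sensory neurons within the spinal cord. Every mouse carried this injury. One group received MS275, an inhibitor of class I histone deacetylases, by intraperitoneal injection at 12 mg/kg when injured, with a second injection 2 h ahead of sacrifice; the other received the vehicle (Tween80, PEG300 and DMSO). Each of the 3 MS275 and 3 vehicle RNA libraries came from ganglia pooled from 2 mice, so that whole ganglia and not sorted neurons were measured, and uninjured ganglia form no group here. ATAC-seq, which maps open chromatin, used 1 mouse per library, and 1 combined region list per treatment was analysed.

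Methyl marks on histone tails are read by the site they occupy. Methylation of H3K4 (lysine 4 of histone H3) marks promoters and enhancers, and that of H3K36 the bodies of transcribed genes. Silent or compacted chromatin carries methylated H3K9 and H3K27 and the trimethyl form of H4K20. Most writers carry a SET domain and take the methyl group from S-adenosylmethionine. Most erasers carry a JmjC domain that needs iron and 2-oxoglutarate, while LSD1 and LSD2 use a flavin. Histone deacetylases and demethylases share complexes, LSD1 and the deacetylases in CoREST being the known case.

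The RNA libraries held 34992533 to 60370523 reads assigned to genes. All 10 sensory neuron markers were detected, at a summed 12824 to 13288 CPM under vehicle against 12841 to 14385 CPM under MS275, and none of them was called. Their estimates were positive for 9 of 10. For 6 of them every MS275 library lay above every vehicle library (all genes tested: 15.9%). Skeletal muscle transcripts moved with treatment: 9 of 10 markers rose, their sum was 8.17 to 61.7 CPM under vehicle against 94.4 to 720 CPM under MS275, MS275 replicate 1 being the highest, and no marker was at 0 in the group means. Of 6 endothelial markers 3 rose, with sums of 101 to 112 and 120 to 141 CPM. Of 6 satellite glia markers 1 fell, Fabp7 (log2 fold change -0.54, adjusted p = 0.0019), and 2 rose, Glul (0.29, adjusted p = 0.00527) and Slc1a3 (0.26, adjusted p = 0.047); their sum was 1224 to 1233 CPM under vehicle and 1254 to 1304 CPM under MS275, and their part in the results was not tested. The 6 neutrophil markers summed to 38.7 to 66.5 and 44.3 to 250 CPM, again highest in MS275 replicate 1, and none was called. The 3 erythroid markers summed to 51.1 to 63.8 CPM under vehicle and 31.5 to 142 CPM under MS275, also highest in MS275 replicate 1. The 6 Schwann cell markers summed to 4829 to 5881 and 5312 to 5978 CPM. For 5 macrophage markers the sums were 31.2 to 33.4 and 31.9 to 37.7 CPM. No marker of these 3 lists was called. In such bulk tissue, fewer cells of a type and less RNA per cell cannot be told apart.

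Promoters are shown first for the changed enzyme genes of smallest p that have an entry in the RefSeq promoter table, and for Suv420h2 as the paralog of Suv420h1. Each is read 5′ to 3′ on the gene's strand, from 250 bases before an annotated start to 50 after it, in build GRCm38.p6. Capitals mark the letters searched on both strands: the GC box GGGCGG bound by Sp and Klf factors, the NRF1 core TGCGCA, the ETS core CCGGAAG, the CRE TGACGTCA, the E-box CACGTG, the box named CCAAT, the YY1 core ATGGCGG and the TATA box TATAAA. Neighbouring GC boxes may overlap.
Suv420h1 (chr19:3767639-3767938, plus strand, lower with MS275): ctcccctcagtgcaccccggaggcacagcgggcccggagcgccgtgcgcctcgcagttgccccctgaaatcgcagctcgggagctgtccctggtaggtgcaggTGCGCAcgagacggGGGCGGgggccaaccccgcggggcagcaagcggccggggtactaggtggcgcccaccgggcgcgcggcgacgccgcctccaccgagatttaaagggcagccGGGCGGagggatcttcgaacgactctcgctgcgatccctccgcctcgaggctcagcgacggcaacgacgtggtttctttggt
Suv420h2 (chr7:4739877-4740176, plus strand, not called): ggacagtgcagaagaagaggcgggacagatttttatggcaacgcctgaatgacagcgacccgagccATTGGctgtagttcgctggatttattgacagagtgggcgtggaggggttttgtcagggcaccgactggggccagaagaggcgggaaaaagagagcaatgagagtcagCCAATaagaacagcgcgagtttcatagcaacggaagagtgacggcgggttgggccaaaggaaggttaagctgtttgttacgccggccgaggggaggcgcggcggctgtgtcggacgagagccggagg
Setd2 (chr9:110532347-110532646, plus strand, lower): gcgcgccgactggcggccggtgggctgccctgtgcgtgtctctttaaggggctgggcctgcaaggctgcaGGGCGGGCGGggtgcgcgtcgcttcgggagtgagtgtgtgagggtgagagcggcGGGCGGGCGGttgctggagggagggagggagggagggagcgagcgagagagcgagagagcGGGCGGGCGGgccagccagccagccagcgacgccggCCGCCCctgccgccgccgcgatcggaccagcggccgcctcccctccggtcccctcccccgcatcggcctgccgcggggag
Mll1 (chr9:44881240-44881539, minus strand, lower): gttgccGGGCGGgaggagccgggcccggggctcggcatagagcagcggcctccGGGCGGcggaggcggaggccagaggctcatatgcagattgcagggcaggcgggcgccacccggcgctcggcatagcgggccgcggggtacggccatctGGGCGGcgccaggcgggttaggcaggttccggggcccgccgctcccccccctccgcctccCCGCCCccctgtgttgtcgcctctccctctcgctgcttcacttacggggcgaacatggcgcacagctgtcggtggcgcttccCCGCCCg
Kdm4c (chr4:74251629-74251928, plus strand, lower): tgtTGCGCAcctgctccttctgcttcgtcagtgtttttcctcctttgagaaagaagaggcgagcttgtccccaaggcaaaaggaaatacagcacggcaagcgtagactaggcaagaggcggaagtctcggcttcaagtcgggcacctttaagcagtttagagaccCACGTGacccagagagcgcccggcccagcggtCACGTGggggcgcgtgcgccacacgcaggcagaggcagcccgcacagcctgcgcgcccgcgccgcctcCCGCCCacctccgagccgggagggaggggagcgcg
Smyd1 (chr6:71262232-71262531, minus strand, higher): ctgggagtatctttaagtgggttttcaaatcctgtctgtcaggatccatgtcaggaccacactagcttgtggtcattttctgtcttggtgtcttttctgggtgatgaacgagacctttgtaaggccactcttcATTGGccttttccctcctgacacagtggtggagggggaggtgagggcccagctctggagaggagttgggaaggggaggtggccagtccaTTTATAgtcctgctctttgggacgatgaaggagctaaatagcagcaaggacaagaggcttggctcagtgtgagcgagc

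The median window of all tested genes has 60.3% GC and 20 CpG pairs. The windows of the 4 lower genes shown have more G and C than that. Those of Kdm5c and Setdb1, also lower but not shown, have less, at 47.0% and 55.3%. For an enzyme gene with several starts, the start nearest the summit of its strongest vehicle ATAC region was used. For all tested genes the first listed start was used, so the windows were not chosen alike. Suv420h1 has 71.3% GC, 38 CpG pairs, 2 GC boxes and 1 NRF1 core, where Suv420h2 has 57.7% GC, 22 CpG pairs, 2 CCAAT boxes and no GC box. Setd2 holds 7 GC boxes and Mll1 5, with 77.3% and 75.7% GC. Kdm4c holds 2 E-boxes, 1 GC box and 1 NRF1 core at 64.7% GC. Smyd1 differs in composition from these, with 52.0% GC, 3 CpG pairs, 1 TATA box and 1 CCAAT box. Among one window each for 12361 tested genes, a GC box was found in 61.2%, CCAAT in 38.1%, the ETS core in 15.9%, the NRF1 core in 13.2%, an E-box in 9.71%, TATAAA in 7.73%, the YY1 core in 7.25% and a CRE in 3.02%. Only 36 of the 48 enzyme genes have an entry, under 80%, so a comparison of sequence content between called and uncalled enzyme genes is void. Those with none are Kdm6b, Kdm2a, Kdm5a, Kdm3b, Kdm4b, Mll5, Smyd3, Whsc1, Ash1l, Nsd1, Whsc1l1 and Setd1b.

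The RNA comparison asked how MS275 altered the transcripts of these enzymes in injured ganglia. More writers and erasers fell than rose: of 48 enzyme genes, 18 fell and 3 rose (edgeR's quasi-likelihood test, Benjamini-Hochberg adjusted p under 0.05 over 16819 genes). The 18 are 37.5% of the enzyme genes, against 5.89% of all genes tested that fell; the 3 are 6.25%, against 5.10% of all genes that rose. Among writers 10 of 20 fell and among erasers 7 of 17, and 0 of either rose, while all 3 genes that rose, and 1 that fell, were among the 11 other SET proteins. The median log2 fold change was -0.21 over writers, -0.18 over erasers and 0.03 over the other SET proteins, against 0.00 over all genes tested. The classes were set with earlier results of these data known, so this split by class is a description only. Most changes were modest, and 3 of the 18 that fell did so by 1.5-fold or more: Suv420h1, Setd1b and Suv39h2.

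**Figure D1:**
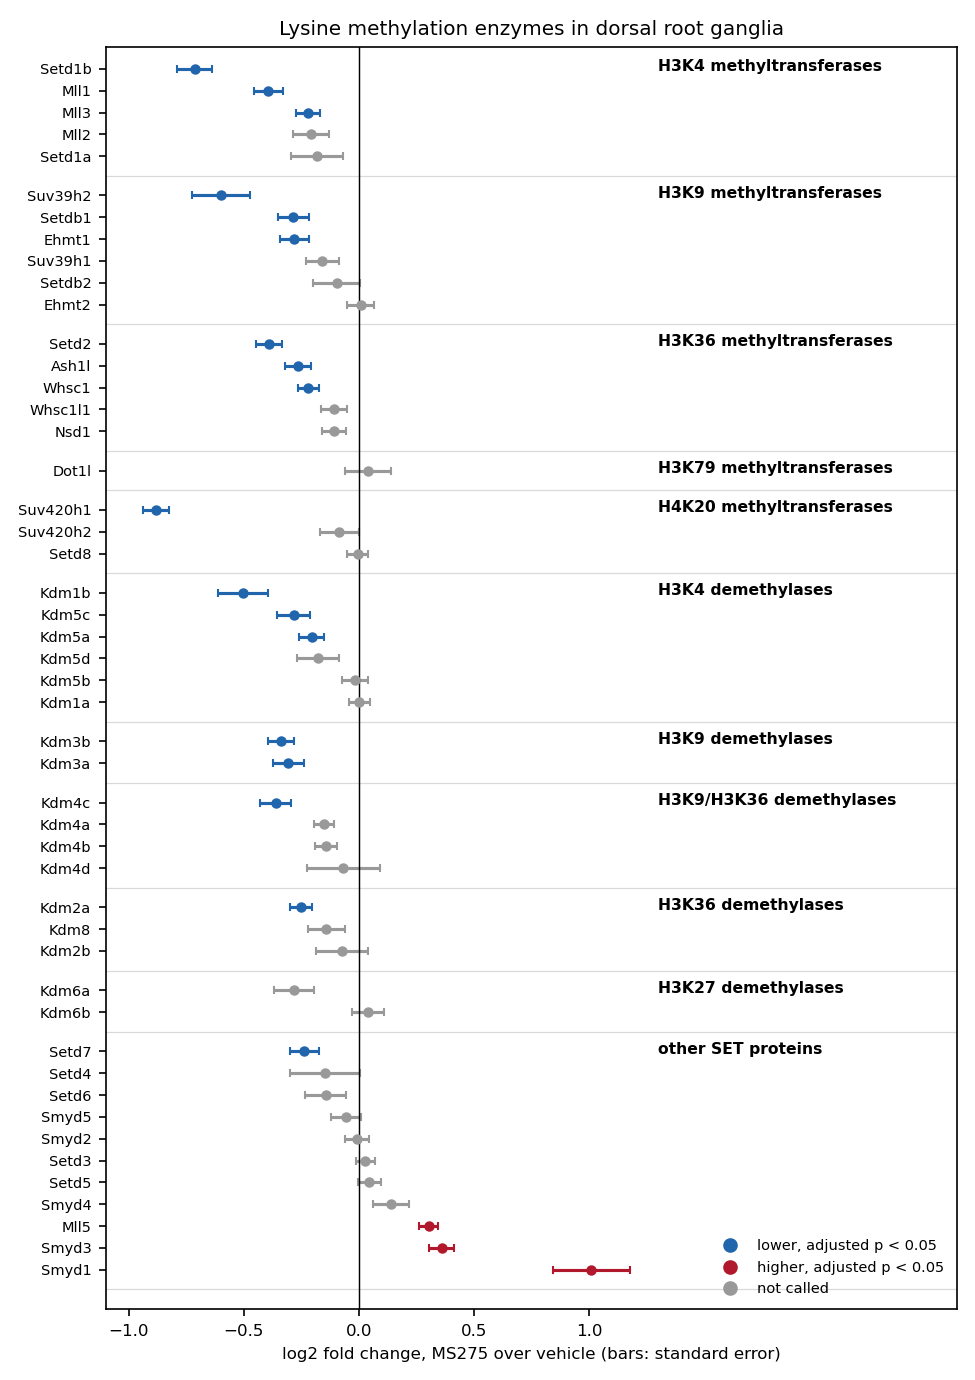
Log2 fold change of each of the 48 enzyme genes, MS275 over vehicle (horizontal axis), by histone site and role; bars are standard errors, blue marks genes called lower, red those called higher and grey those not called. Suv420h1 lies lowest at -0.88 and Smyd1 highest at 1.01, and 18 of 20 writers and 15 of 17 erasers lie below 0.

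The 3 MS275 libraries all lay below the 3 vehicle libraries for 22 of the 48 enzyme genes (all genes tested: 17.9%) and all above for 3 (15.9%). The shift was seen in each MS275 library. Relative to the vehicle mean, the median enzyme gene stood at -0.21, -0.12 and -0.19 on the log2 CPM scale in MS275 replicates 1, 2 and 3. It stood at -0.01 to 0.01 in the vehicle libraries. Those are held near 0 because their own mean is subtracted, so they do not measure the scatter of untreated libraries. The median of all genes lay between -0.01 and 0.00 in every library. Among the 18 lower genes, replicate 3 was the lowest MS275 library for 11 and replicate 2 the highest for 10. Replicate 1, the library with most muscle RNA, was lowest for 6 and highest for 7.

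The count of 18 varied with the libraries used, as did that of all genes. Leaving out vehicle replicate 1, 2 or 3 gave 4, 4 and 9, and leaving out MS275 replicate 1, 2 or 3 gave 16, 22 and 8. Over all genes the 991 that fell became 179, 134 and 392 without vehicle replicate 1, 2 or 3. They became 951, 1375 and 434 without MS275 replicate 1, 2 or 3. With the muscle markers as a covariate 1 enzyme gene, Suv420h1, was still called lower and 0 higher. Over all genes 15 were then lower and 33 higher. All 18 lower enzyme genes kept a negative estimate, with the median going from -0.30 to -0.27 and the median standard error from 0.06 to 0.09. The muscle markers summed higher in every MS275 library than in every vehicle library, so this fit cannot tell muscle RNA and treatment apart.

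Of 3 writers of H4K20, 1 fell, and its change was the largest among the 18 lower enzyme genes. Suv420h1 (Kmt5b) makes the di- and trimethyl forms of H4K20. It stood at 34.2, 36.2 and 33.6 CPM in vehicle replicates 1 to 3 and at 19.1, 19.0 and 18.4 CPM with MS275. The groups were far apart and the MS275 libraries nearly equal. The log2 fold change was -0.88 (SE 0.06, adjusted p = 0.000576), a fall by 45.7%. Its paralog Suv420h2 (Kmt5c), which makes the trimethyl form, stood at 9.60, 10.4 and 11.0 CPM under vehicle against 9.22, 9.66 and 10.4 CPM under MS275, and the groups overlapped. Its log2 fold change was -0.09 (SE 0.09, adjusted p = 0.55). Setd8 (Kmt5a), the enzyme that lays down the first methyl group on H4K20, had a log2 fold change of -0.01 (SE 0.04, adjusted p = 0.948), at 109 to 112 CPM under vehicle against 106 to 115 CPM under MS275.

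Among 5 writers of H3K4, 3 fell. Setd1b, the catalytic subunit of a SET1 promoter complex, stood at 25.4, 26.8 and 25.9 CPM under vehicle against 14.2, 17.0 and 16.4 CPM under MS275, with no overlap. Its log2 fold change was -0.71 (SE 0.08, adjusted p = 0.0019). Mll1 (Kmt2a), the MLL enzyme of Hox gene control, stood at 55.8, 55.1 and 51.1 CPM under vehicle against 39.3, 44.8 and 39.0 CPM under MS275 (log2 fold change -0.39, SE 0.06, adjusted p = 0.00802). Each MS275 library of Mll1 lay below each vehicle library. Mll3 (Kmt2c), which monomethylates H3K4 at enhancers, fell less, by 14.1% (adjusted p = 0.0302). Its partner in that role, Mll2, here Kmt2d, had a nearly equal estimate of -0.21 with a wider error (SE 0.08, adjusted p = 0.113), and Setd1a had -0.18 (SE 0.11, adjusted p = 0.314). The symbol Mll2 is shared by Kmt2b and Kmt2d in RefSeq; the tables list Kmt2b separately as Wbp7, outside the name pattern, and Wbp7 went from 33.1 ± 2.55 to 25.1 ± 2.39 CPM (SD, n = 3; log2 fold change -0.40, SE 0.08, adjusted p = 0.019 in edgeR).

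Of 6 erasers of H3K4, 3 fell. Kdm1b (LSD2), a flavin demethylase, stood at 7.83, 8.58 and 8.63 CPM under vehicle against 6.73, 5.48 and 5.44 CPM under MS275 (log2 fold change -0.50, SE 0.11, adjusted p = 0.0214). MS275 replicate 1 was the highest of its 3 treated libraries and still below all vehicle libraries. Its relative Kdm1a (LSD1), the CoREST subunit, stood at 52.0, 53.3 and 51.6 CPM under vehicle against 52.0, 50.9 and 54.3 CPM under MS275, and the groups overlapped throughout (log2 fold change 0.00, SE 0.04). The JmjC enzymes Kdm5c, X-linked, and Kdm5a fell by 17.8% and 13.3% (adjusted p = 0.037 and adjusted p = 0.0398). Kdm5b had a log2 fold change of -0.02 (SE 0.06) and Kdm5d, Y-linked, -0.18 (SE 0.09), and neither passed.

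**Figure D2:**
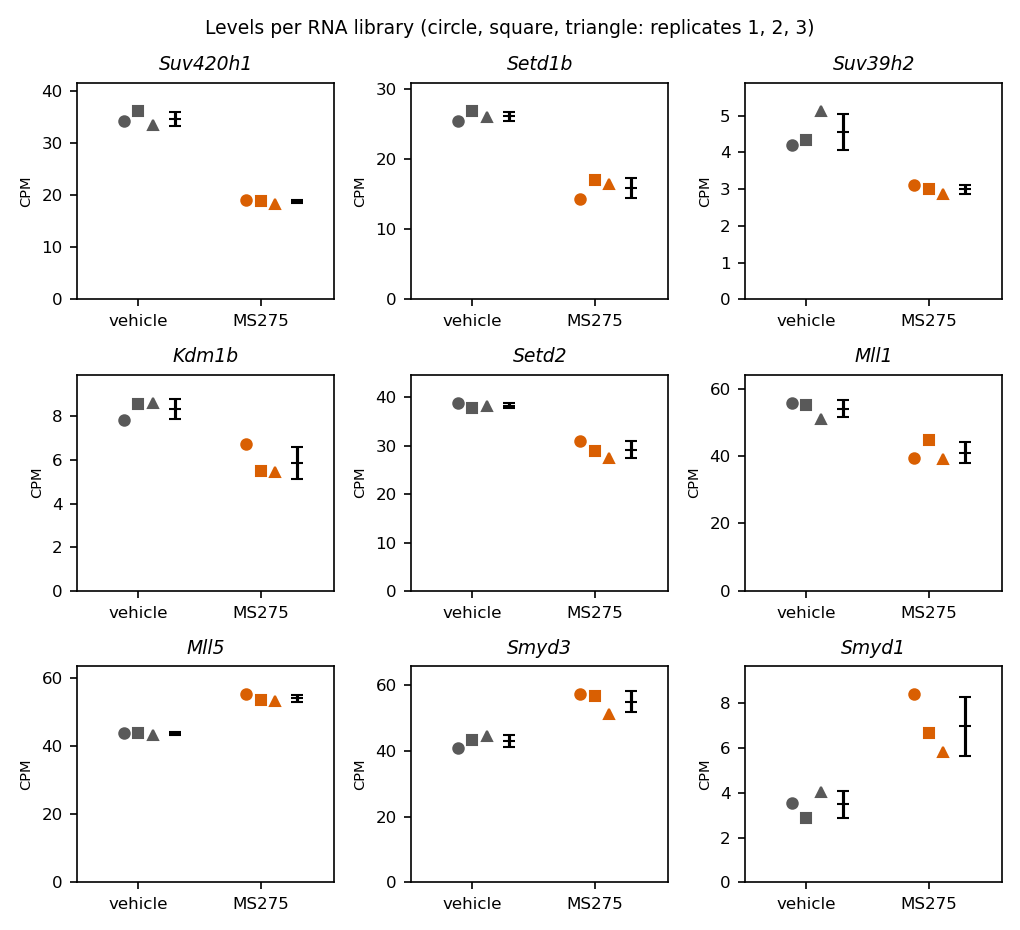
Levels in CPM (vertical axis, from 0) of 9 called enzyme genes in each RNA library, vehicle in grey and MS275 in orange; circles, squares and triangles are replicates 1, 2 and 3, and bars give the mean and SD. In the first 6 panels every MS275 library lies below every vehicle library, and in Mll5, Smyd3 and Smyd1 every MS275 library lies above.

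Of 6 writers of H3K9, the mark bound by HP1 proteins, 3 fell. Suv39h2, which trimethylates constitutive heterochromatin, stood at 4.20, 4.34 and 5.12 CPM under vehicle against 3.11, 3.00 and 2.87 CPM under MS275 (log2 fold change -0.60, SE 0.13, adjusted p = 0.0192). The groups did not overlap, at the lowest mean CPM of the 21 called enzyme genes. Setdb1, which is recruited by TRIM28 to silence transposable elements, and Ehmt1 (GLP), which dimethylates H3K9, fell by 17.9% and 17.7% (adjusted p = 0.0283 and adjusted p = 0.024). Ehmt2 (G9a), the partner of GLP, had a log2 fold change of 0.01 (SE 0.06), Suv39h1 of -0.16 (SE 0.07, adjusted p = 0.176) and Setdb2 of -0.10 (SE 0.10).

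Of the 2 erasers of H3K9 alone both fell, and of the 4 that act on H3K9 and H3K36 1 fell. Kdm3b stood at 33.2, 31.6 and 33.3 CPM under vehicle against 26.0, 26.9 and 24.6 CPM under MS275 (log2 fold change -0.34, SE 0.06, adjusted p = 0.00915), and Kdm3a, a hypoxia-inducible enzyme, fell by 19.1% (adjusted p = 0.0211). Of the 4 Kdm4 enzymes, which act on trimethylated H3K9 and H3K36, Kdm4c passed, at 18.9, 19.5 and 18.4 CPM under vehicle against 14.8, 15.4 and 14.0 CPM under MS275 (log2 fold change -0.36, SE 0.07, adjusted p = 0.0121). For Kdm4a and Kdm4b all MS275 libraries lay below all vehicle libraries too, with estimates of -0.15 (SE 0.04, adjusted p = 0.0572) and -0.14 (SE 0.05, adjusted p = 0.0916). Kdm4d, at 1.82 to 2.20 CPM under vehicle against 1.80 to 2.13 CPM under MS275, gave -0.07 (SE 0.16).

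Writers of H3K36 fell in 3 of 5 cases. Setd2, the enzyme that trimethylates H3K36 behind elongating RNA polymerase II, stood at 38.9, 37.8 and 38.2 CPM under vehicle against 31.0, 29.0 and 27.5 CPM under MS275 (log2 fold change -0.39, SE 0.06, adjusted p = 0.00561). The vehicle libraries of Setd2 were tightly grouped and none approached the MS275 range. Ash1l and Whsc1 (Nsd2), which dimethylate H3K36, fell by 16.9% and 14.2% (adjusted p = 0.0199 and adjusted p = 0.0168). The related Nsd1 and Whsc1l1 (Nsd3) gave -0.11 each (SE 0.05 and SE 0.06). Of the 3 erasers Kdm2a, which binds unmethylated CpG islands through a CXXC domain, fell by 16.0% (adjusted p = 0.0132). Kdm2b and Kdm8 gave -0.08 (SE 0.11) and -0.14 (SE 0.08).

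Neither eraser of H3K27 passed, and the pattern holds no H3K27 writer. Kdm6a (UTX), X-linked, stood at 18.6, 17.1 and 18.0 CPM under vehicle against 13.0, 16.0 and 15.1 CPM under MS275, without overlap (log2 fold change -0.28, SE 0.09, adjusted p = 0.0645 in edgeR and adjusted p = 0.0394 in DESeq2). Kdm6b (JMJD3), an inducible enzyme, gave 0.04 (SE 0.07). Dot1l, the H3K79 writer without a SET domain, gave 0.04 (SE 0.10), at 16.5 to 21.5 CPM under vehicle against 18.0 to 20.4 CPM under MS275. Without vehicle replicate 1 the Dot1l estimate turned to -0.043, still far from a call.

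Of the 11 other SET proteins 3 rose and 1 fell (27.3% higher, against 5.10% of all genes). This class was set with earlier results of these data known, so its contrast with the writers and erasers is a description. Mll5 (Kmt2e), an MLL relative without clear enzyme activity, stood at 43.9, 43.9 and 43.3 CPM under vehicle against 55.2, 53.5 and 53.2 CPM under MS275 (log2 fold change 0.30, SE 0.04, adjusted p = 0.00425). Smyd3, which methylates the kinase MAP3K2 in the cytoplasm, stood at 41.0, 43.4 and 44.5 CPM under vehicle against 57.3, 56.7 and 51.3 CPM under MS275 (log2 fold change 0.36, SE 0.06, adjusted p = 0.00762). Both were separated between the groups in every library. Smyd1, a SET and MYND protein of striated muscle, stood at 3.54, 2.85 and 4.04 CPM under vehicle against 8.38, 6.64 and 5.82 CPM under MS275 (log2 fold change 1.01, SE 0.17, adjusted p = 0.00905). The 10 muscle markers summed to 16.1, 8.17 and 61.7 CPM in the same order under vehicle and to 720, 94.4 and 103 CPM under MS275, and with them as a covariate the Smyd1 estimate was 0.52 (adjusted p = 0.243); their part in the result cannot be told apart from treatment. Setd7, a methyltransferase of H3K4 and of many other proteins, fell by 15.2% (adjusted p = 0.0436). The actin histidine methyltransferase Setd3 (0.03, SE 0.04), Setd5 (0.05, SE 0.05) and Smyd2 (-0.01, SE 0.05) were not called.

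Calls differed in how far they depended on single libraries. Of the 21 called enzyme genes 5 passed with any of the 6 libraries left out: Suv420h1, Setd1b, Setd2, Mll5 and Smyd3. Mll1, Kdm3b and Smyd1 passed in 5 of 6 such fits. At the other end Mll3 and Setd7 passed in 1, without MS275 replicate 2, and Ehmt1, Kdm1b, Kdm3a, Kdm5a, Kdm5c and Suv39h2 in 2. No called gene changed sign in any of these fits. Of the 21, 13 overlap another annotated gene, Suv420h1 with Gm16066 and Suv39h2 with Dclre1c among them, and whether the counting used strand is not given in these sources, so reads of the overlapping stretches are of uncertain origin.

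**Figure D3:**
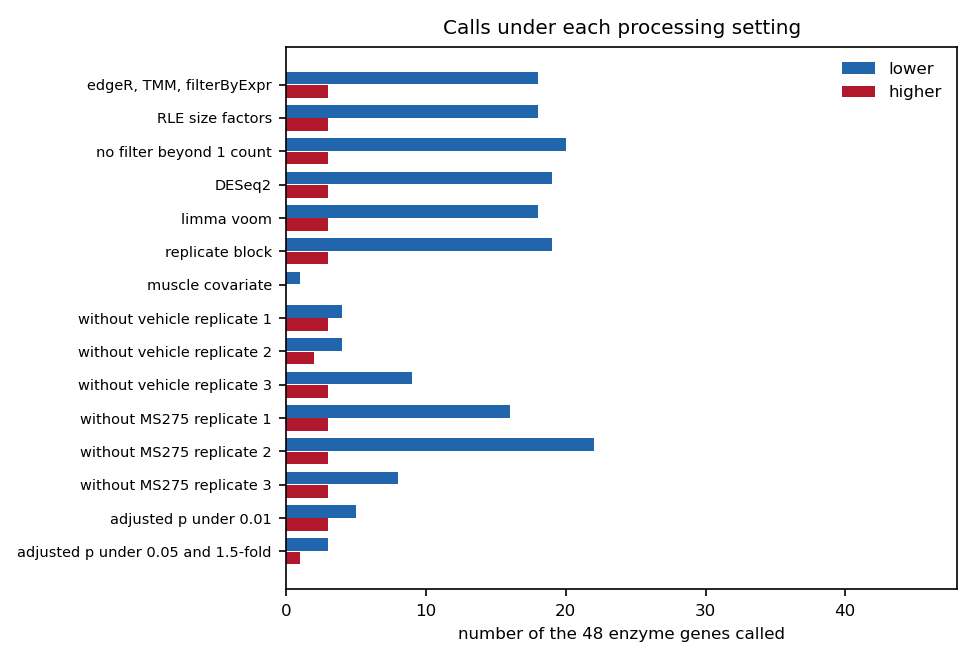
Number of the 48 enzyme genes (horizontal axis, from 0 to 48) called lower (blue) and higher (red) under each processing setting and with each library left out. The lower count is 18 in the first setting, highest at 22 without MS275 replicate 2, 4 without vehicle replicate 1 or 2, and lowest at 1 with the muscle covariate.

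The balance within pairs of related enzymes is given as a description, since no pair could pass the test used. In 11 of 13 pairs exactly 1 member fell, which by itself does not show that the partners differ, so the log2 ratio of the partners was compared over libraries. The pairs, and the order of the partners, were chosen after the values were seen. In 8 of the 13 pairs the ratio did not overlap between the groups. The share of other gene pairs that do the same was not worked out. Of all single genes tested, 17.9% had every MS275 library below every vehicle library and 15.9% every one above. Those shares are of single genes and not of ratios, so the 8 of 13 has no baseline here. Choosing pairs with a called member also favours separation of the ratio. With 3 against 3 libraries a 2-sided exact permutation test cannot go below p = 0.1. All 8 pairs reached that value (adjusted p = 0.1625 over the 13 pairs), so none could pass. The log2 ratio of Suv420h1 to Suv420h2 was 1.83, 1.80 and 1.61 in vehicle and 1.05, 0.97 and 0.83 with MS275, a difference of -0.80. That of Setd1b to Setd1a was 0.64, 0.70 and 0.82 in vehicle and 0.23, 0.04 and 0.31 with MS275, a difference of -0.52. Kdm1b to Kdm1a differed by -0.51, Suv39h2 to Suv39h1 by -0.44, Kdm6a to Kdm6b by -0.33 and Ehmt1 to Ehmt2 by -0.29. The ratio of Kdm3a to Kdm3b (0.03) and of Mll3 to Mll2 (-0.01) differed by less than the spread between replicates. These are ratios of counts between genes of unequal length, so only their change between groups can be read.

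**Figure D4:**
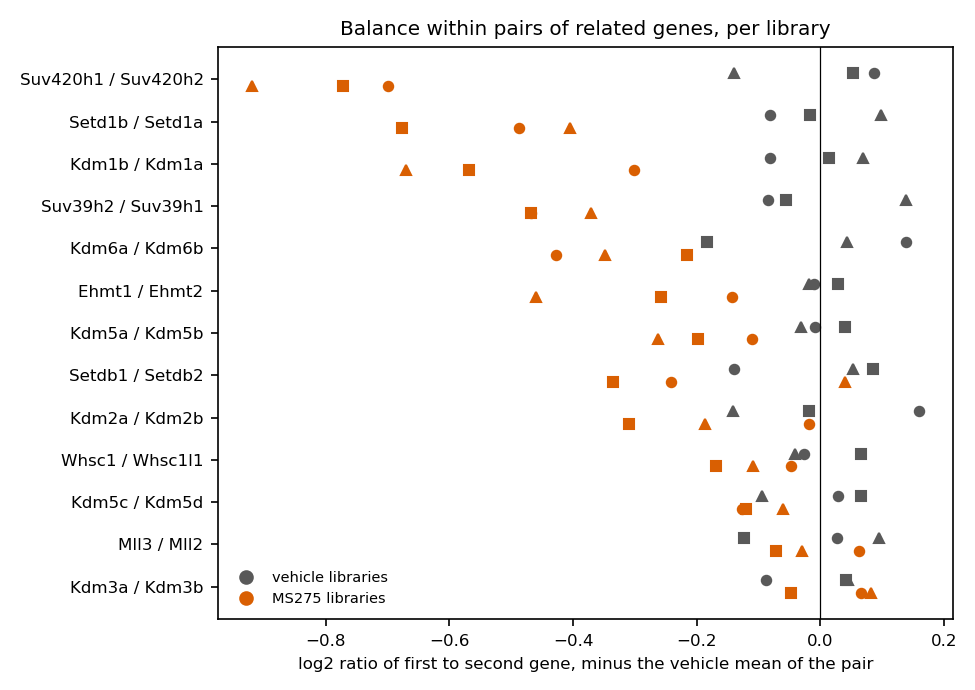
Log2 ratio of the first to the second gene of each of 13 pairs in each RNA library, minus the mean of that pair in vehicle (horizontal axis); grey marks vehicle and orange MS275 libraries, with circles, squares and triangles for replicates 1, 2 and 3. The Suv420h1 to Suv420h2 ratio lies farthest to the left, with a mean difference of -0.80, and the Kdm3a to Kdm3b points of both groups overlap.

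Other genes of lysine methylation gave a mixed account. Of 13 subunits of the H3K4 methylation complexes, 5 fell and 1 rose (38.5% lower, against 5.89% of all genes; median log2 fold change -0.17). Wdr82, which ties the SET1 enzymes to RNA polymerase II, stood at 63.1, 64.4 and 59.8 CPM under vehicle against 48.5, 49.0 and 46.9 CPM under MS275 (log2 fold change -0.38, SE 0.04, adjusted p = 0.00271), and it passed with any library left out. Wdr5, a core scaffold (-0.37, SE 0.07), Ncoa6 (-0.29, SE 0.06), Hcfc2 (-0.32, SE 0.06) and Hcfc1 (-0.30, SE 0.06) also fell, and Pagr1a rose (0.29, SE 0.07). The lower count of 5 became 1, 1 and 3 when vehicle replicate 1, 2 or 3 was left out, and the higher count of 1 became 0 in every such fit except that without MS275 replicate 2. The core subunits Rbbp5 and Men1 (menin) gave -0.01 (SE 0.05) and 0.01 (SE 0.06), and Dpy30 0.08 (SE 0.08).

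Of 14 methylation enzymes with names outside the pattern 3 fell and 0 rose, 21.4% lower against 5.89% of all genes (median -0.11). Ezh2, the Polycomb H3K27 methyltransferase, stood at 3.65, 4.10 and 3.81 CPM under vehicle against 2.61, 1.84 and 2.49 CPM under MS275 (log2 fold change -0.74, SE 0.16, adjusted p = 0.0207), while its paralog Ezh1 gave 0.04 (SE 0.04). Phf2 and Phf8, JmjC demethylases with a PHD finger, gave -0.25 each (SE 0.05 and SE 0.07) and passed, Phf8 narrowly (adjusted p = 0.049, and adjusted p = 0.0511 with RLE size factors). With any 1 vehicle library left out 0 of the 14 were called lower, and without MS275 replicate 3, 1 was; Phf2 passed in 2 and Phf8 in 1 of the 6 fits that left out a library. Of 10 readers and partners of H3K9 methylation 2 fell, Trim28 (-0.25, SE 0.06), the KRAB co-repressor that recruits Setdb1, and Zfp644 (-0.28, SE 0.05), a partner of G9a and GLP; the HP1 genes Cbx1, Cbx3 and Cbx5 did not pass. Of 9 partners of Dot1l and elongation 1 fell, Ccnt1 (-0.21, SE 0.06). The lower share was 20% of the H3K9 list and 11.1% of the Dot1l list, against 5.89% of all genes. In lists this short 1 gene makes up much of the share.

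Of 14 genes that supply methyl groups or cofactors, 2 fell and 1 rose (14.3% and 7.14%, against 5.89% and 5.10% of all genes). Mtr, methionine synthase, gave -0.41 (SE 0.08, adjusted p = 0.0152). Idh1 and Idh2, the cytosolic and mitochondrial enzymes that make 2-oxoglutarate, gave opposite estimates that both passed, -0.26 (SE 0.05) and 0.33 (SE 0.08). Mat2a, which makes S-adenosylmethionine, gave 0.10 (SE 0.06) and did not pass. Among the genes that share only the letters of the name pattern, Mllt1 (ENL), a reader of acetyl-lysine in elongation complexes, fell from 28.5 ± 1.02 to 23.5 ± 1.58 CPM (SD, n = 3; log2 fold change -0.28, SE 0.07, adjusted p = 0.0298 in edgeR), and the other 6 did not pass. Of the 15 genes named under partners, Wbp7 and Mllt1 included and Hcfc1 and Pagr1a not counted, 2, 2 and 5 passed when vehicle replicate 1, 2 or 3 was left out. The count was 14, 14 and 10 when MS275 replicate 1, 2 or 3 was left out, and 0 with the muscle covariate.

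Open chromatin was recorded at the starts of nearly all these genes under both treatments. A region lay within 1000 bp of an annotated start, or of either gene end for the 12 genes with no start entry, in both lists for 45 of 48 enzyme genes (93.8%), against 85.8% of 15935 tested genes matched to RefSeq. All 18 lower genes were among the 45. Smyd1 and Setd5 had a region in the vehicle list only, of 1.80-fold and 1.51-fold enrichment as the authors give it, and Kdm5d had none in either list. The vehicle list holds 277369 entries and the MS275 list 246602, and each pools its replicates, so presence in 1 list has no replicate check.

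The strength of these regions can be read within a list only. In the vehicle list the strongest region at Kdm4c ranked above 99.9% of entries by the authors' fold enrichment (9.32-fold, summit 1 bp upstream of a start), that at Kdm1b at the 99.7th percentile and that at Setd2 at 99.4. Suv420h1, with 2 annotated starts, had a region of 2154 bp within the window at the 95.3rd percentile in vehicle, and of 2125 bp at the 96.6th in the MS275 list. Its summit lay 907 bp downstream of the nearest start in the vehicle list and 939 bp in the MS275 list. In the vehicle list, the percentiles of 12 lower genes with a start entry ran from 93.7 to 99.9, with a median of 98.6. Among all 35 enzyme genes with a start entry and a region they ran from 26.7 to 99.9, with a nearly equal median of 98.2. The same was not worked out for all tested genes. In the MS275 list Setdb1 stood at 80.3 and Setd7 at 91.6, against 93.7 and 94.5 in the vehicle list. These 2 were picked for their drop. Other lower genes moved little and both ways, such as Suv39h2 (99.2 in the vehicle list, 99.5 in the MS275 list) and Setd2 (99.4 and 99.1). Differences between the lists were not tested.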

How the data were processed

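The deposited RNA files hold raw whole-number counts of reads for each gene; 5 rows naming no gene (18.9% to 20.6% of reads) were left out. The deposited ATAC lists pool the replicates and hold a score, a fold ratio and a -log10 q-value for each region, as the authors gave them. From the submitters' processing notes come build mm10 and the tools FastQC 0.10.1, R 3.5.0, limma 3.38.3, edgeR 3.24.3 and STAR 2.7.0; the counter and peak caller are unstated there.

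For the 16819 genes passing filterByExpr, R 4.3.3 and edgeR 4.0.16 gave the fit (quasi-likelihood, TMM, 2-sided, treatment as the only term). CPM use normalised library sizes; SE is the log2 fold change over the square root of F. The design text calls the 3 replicates per group biological. The fit was tested on simulated data. Alternatives were RLE, no filter, DESeq2 1.42.0, limma voom 3.58.1, a replicate block, a muscle covariate, each library left out, stricter thresholds and other ATAC windows.

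Members, classes and lists were chosen with earlier results of these data known. Named were all called enzyme genes, the member of smallest p in classes without one, and up to 4 called genes per partner list; other genes were added after their values were seen. All 48 enzyme genes matched RefSeq GRCm38.p6, older symbols by synonym.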

Additional observations from a re-analysis of the deposited data

How the results depend on the processing

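With RLE size factors, no filter, DESeq2 or limma voom, all 21 called enzyme genes passed again, with 18 to 20 lower and 3 higher. With the replicate number as a block 19 were lower and 3 higher, and all 21 passed; the numbers were not taken to pair the libraries, since deviations of same-numbered libraries correlated at 0.019, 0.111 and -0.061, and not every library correlated best with its own number. With the muscle covariate 1 was lower and 0 higher (all genes: 15 and 33, against 991 and 858). That covariate separates the groups in every library, so it cannot be told apart from treatment. At adjusted p under 0.01, 5 were lower and 3 higher, and with a 1.5-fold minimum 3 and 1. Leaving out a library gave 4 to 22 lower and 2 to 3 higher, 3 to 13 writers and 0 to 8 erasers, and over all genes 134 to 1375 lower and 127 to 1388 higher. The Dot1l estimate ran from -0.043 (without vehicle replicate 1) to 0.15 when single libraries were left out, and Kdm6a passed with no filter, with DESeq2 and without MS275 replicate 2. A minimum of 1 CPM, or none, left the counts at 18 and 3, since no member lies below it. Regions at starts in both lists numbered 42 to 45 of 48 in the 5 settings run. The causes were not tested. ATAC depth is unknown, and 3 libraries a group limit the RNA calls.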

Other observations

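The called enzyme genes are long. The median genomic span of the 18 lower enzyme genes was 69.8 kb, that of the 27 uncalled ones 42.0 kb, and that of all tested genes matched to RefSeq 23.1 kb. Over all matched genes, those that fell had a median span of 32.7 kb (975 genes) and those that rose 14.8 kb (838 genes). Across the 48 enzyme genes the rank correlation of span with log2 fold change was -0.116, and across 15935 genes -0.148, both weak and across genes of the same libraries. Level and change were also nearly unrelated among the 48 (rank correlation 0.147 between mean CPM and log2 fold change).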
